A study of Mus musculus with 9 samples.

Results

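The genes described here are 37 genes of the lysosome: 20 hydrolases with their cofactors, 6 membrane proteins, 8 subunits of the proton pump and 3 transcription factors of the MiT family. They were chosen by name, from a list of symbols, and not by their expression. Each symbol matched 1 gene identifier of the 22001 in the deposited count table. Expression was measured by RNA sequencing in bone marrow-derived macrophages of C57BL6 mice, which are macrophages grown from marrow cells in culture. The 9 libraries carry 3 labels with 3 libraries each, all at 6 h. Libraries A2, B2 and C2 are labelled untreated and received PBS. Libraries D1, D2 and D3 are labelled Pam3CSK4, a synthetic lipopeptide that activates Toll-like receptor 2, at 100 µg/ml. Libraries A2plus, B2plus and C2plus are labelled with the same dose of Pam3CSK4 together with 3SL at 100 µl/ml, a volume from which no amount can be derived. This follows their descriptions, whereas their titles and treatment tags say Pamc4, with 3SL or CSL, and those of D1 to D3 say Pamc3. Whether both groups received the same lipopeptide is therefore not settled by the labels. The series title names 3SL as 3′sialyllactose, a human milk oligosaccharide. No genotype, sex or age is used here, and the labels name no separate animals or cultures for the 3 libraries in a group. The p-values thus rest on how far these samples vary, and that variation may be technical.

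Lysosomes are acidic organelles in which hydrolases break down proteins, sugar chains and lipids that macrophages take up or recycle. The vacuolar proton pump acidifies them. Its V0 sector sits in the membrane and conducts protons, and its V1 sector in the cytosol hydrolyses ATP. Transcription factors of the MiT family (TFEB, TFE3, MITF and TFEC) bind short E-box motifs in the promoters of many lysosome genes, and nutrient signalling at the lysosomal surface controls their entry into the nucleus.

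The libraries held between 7472482 counts (A2plus) and 43980309 counts (B2), and all 37 genes passed the filter on low counts, as did 52.1% of all genes. Levels are given as CPM, counts brought to a common library size, with TMM factors, a scaling that assumes that most genes do not change. The smallest count of any of the 37 genes in any library was 55, for Ctsk. The inflammatory genes Il1b and Tnf, which Toll-like receptor 2 ligands are known to induce, went against the labels. Il1b lay between 9661 and 10559 CPM in the libraries labelled untreated, between 4.3 and 7.36 CPM in those labelled Pam3CSK4, and between 7495 and 8561 CPM in those labelled Pam3CSK4 plus 3SL. Whether labels were exchanged or samples mixed up was not tested. Groups are therefore named by label throughout, and every direction below is a direction between labels. The group labelled Pam3CSK4 also holds all libraries with the letter D, so the letter and the label cannot be told apart. All 10 macrophage markers were detected and summed to between 10793 and 10967 CPM with the untreated label, between 8262 and 8472 CPM with the Pam3CSK4 label and between 10717 and 10896 CPM with the Pam3CSK4 plus 3SL label. With TMM the sum was thus lower in every library labelled Pam3CSK4, but the markers did not move together. Against the untreated label 4 were higher, 4 lower and 2 did not pass edgeR's test, beside 39.0% higher and 35.9% lower of all tested genes. Scaled by library size alone, 6 markers were higher and 2 lower, beside 60.0% and 20.8% of all genes. Adgre1 fell most, from a mean of 4300 to 1296 CPM, while Trem2 rose 1.86-fold. The part of these markers in the changes below was not tested. In bulk RNA, fewer cells of a type and less RNA per cell cannot be told apart.

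Because the MiT factors are known to bind E-boxes, the promoters of the 37 genes were searched for 3 motifs on both strands. The motifs were CACGTG, the longer palindrome TCACGTGA that contains it, and TCATGTG. RefSeq promoter windows of the mouse build GRCm38.p6, 250 bases before to 50 bases after each start, were matched for 31 genes by symbol, with 41 windows in all. Asah1, Atp6v0d2, Atp6v1b2, Atp6v1h, Ctsb and Ctsh had none in that table. TCACGTGA stood in 5 of the 41 windows (12.2%), against 0.974% of 32851 windows of all genes. CACGTG stood in 24.4% against 7.15%, and TCATGTG in 14.6% against 3.77%. The 5 genes with the longer motif are shown with it in capitals, 5′ to 3′ on the gene's strand, ordered from the proton pump to the proteases and the membrane. In Ctsa, Ctsd and Mcoln1 the motif lies in a 5′ untranslated region of at least 1 GENCODE transcript, and only the site is shown.
Atp6v0d1, chr8:105566061-105566220, minus strand: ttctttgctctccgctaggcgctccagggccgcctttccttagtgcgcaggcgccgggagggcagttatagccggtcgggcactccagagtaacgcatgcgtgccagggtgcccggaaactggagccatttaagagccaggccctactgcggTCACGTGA
Atp6v1a, chr16:44139306-44139461, minus strand: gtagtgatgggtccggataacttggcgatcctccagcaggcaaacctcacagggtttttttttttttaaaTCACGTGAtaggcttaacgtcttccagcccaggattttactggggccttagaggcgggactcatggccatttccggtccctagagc
Ctsa, chr2:164833758-164833784, plus strand: tgTCACGTGAtgcagatgcTCACGTGA
Ctsd, chr7:142387908-142387937, minus strand: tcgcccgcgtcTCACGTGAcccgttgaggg
Mcoln1, chr8:3500462-3500491, plus strand: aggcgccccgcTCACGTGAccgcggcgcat
The motif began 4 bases before the RefSeq start in Atp6v0d1, 132 in Atp6v1a, 99 in Ctsd and 46 in Mcoln1. In Ctsa 2 copies lay side by side, the outer one beginning 13 bases before the start. A match describes the letters in the window and not a bound site.

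Protease and cofactor genes were the most abundant of the 37 genes. Per kilobase of the principal transcript, Ctsb, the gene of the cysteine protease cathepsin B, stood at 3045 ± 24.7 CPM per kb (SD, n = 3) in the libraries labelled untreated. Psap, whose product is cut into the saposins that help degrade sphingolipids, stood at 2935 ± 68.4 CPM per kb. Ctss (cathepsin S, which trims the MHC class II invariant chain) stood at 2779 ± 12.1 and Ctsd (the aspartic protease cathepsin D) at 2743 ± 25.6 CPM per kb. Ctsb and Psap, and Ctss and Ctsd, differed by less than 2 SD of the larger spread, so the order within each pair is not settled. The order also depends on the length used: over the union of exons Psap stood at 2842, Ctss at 2773, Ctsd at 2481 and Ctsb at 2387 CPM per kb. Gpnmb, a membrane glycoprotein gene of lipid-laden macrophages, stood below these 4 with either length, at 2063 ± 6.83 CPM per kb of principal transcript. The lowest were Mcoln1 at 17.7 ± 0.499, Ctsk at 7.57 ± 0.535 and Tfeb at 7.41 ± 0.392 CPM per kb, and Ctsk and Tfeb overlapped within their spread. These 3 were the lowest over the union of exons too, in the order Ctsk (7.57), Mcoln1 (4.83) and Tfeb (3 CPM per kb). In the libraries labelled Pam3CSK4, Psap (3777 ± 74 CPM per kb) and Ctsd (3760 ± 25.6) did not differ beyond their spread, and Ctsb stood at 3582 ± 49.3 and Gpnmb at 3424 ± 66.7. Over the union of exons Ctss (2884 CPM per kb) stood above Ctsb (2808) and Gpnmb (1946) there.

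The comparison of the libraries labelled Pam3CSK4 with those labelled untreated asks what the labelled stimulus does to this organelle. Most hydrolase genes were higher in the libraries labelled Pam3CSK4, by modest folds. The largest changes were those of 4 genes: Atp6v0d2 and Atp6v0a1 of the proton pump rose 4.01-fold and 2.33-fold, while the protease gene Ctsc fell 5.5-fold and the transcription factor gene Mitf fell 3-fold. In edgeR's quasi-likelihood test, adjusted after Benjamini and Hochberg over 11469 genes, 23 of the 37 genes were higher, 10 were lower and 4 (Ctss, Lamp1, Lamp2 and Cd63) did not pass. In the same comparison 75.0% of all tested genes passed, 39.0% as higher and 35.9% as lower, so passing as such sets no gene apart. The median log2 change was 0.27 over the 37 genes and 0.03 over all genes. The groups did not overlap in CPM for 35 of the 37 genes (94.6%), against 76.0% of all genes. Overlap was read with TMM scaling only. A log2 change of at least 1 in size was seen for 4 of the 37 genes, and for 24% of all genes. When a change had to exceed 1.5-fold, 5 genes were higher and 4 lower, beside 32.3% of all genes, 17.8% as higher and 14.5% as lower. The plot of levels by library has Ctsc, Mitf, Atp6v0a1 and Atp6v0d2 at its edges.

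**Figure D1:**
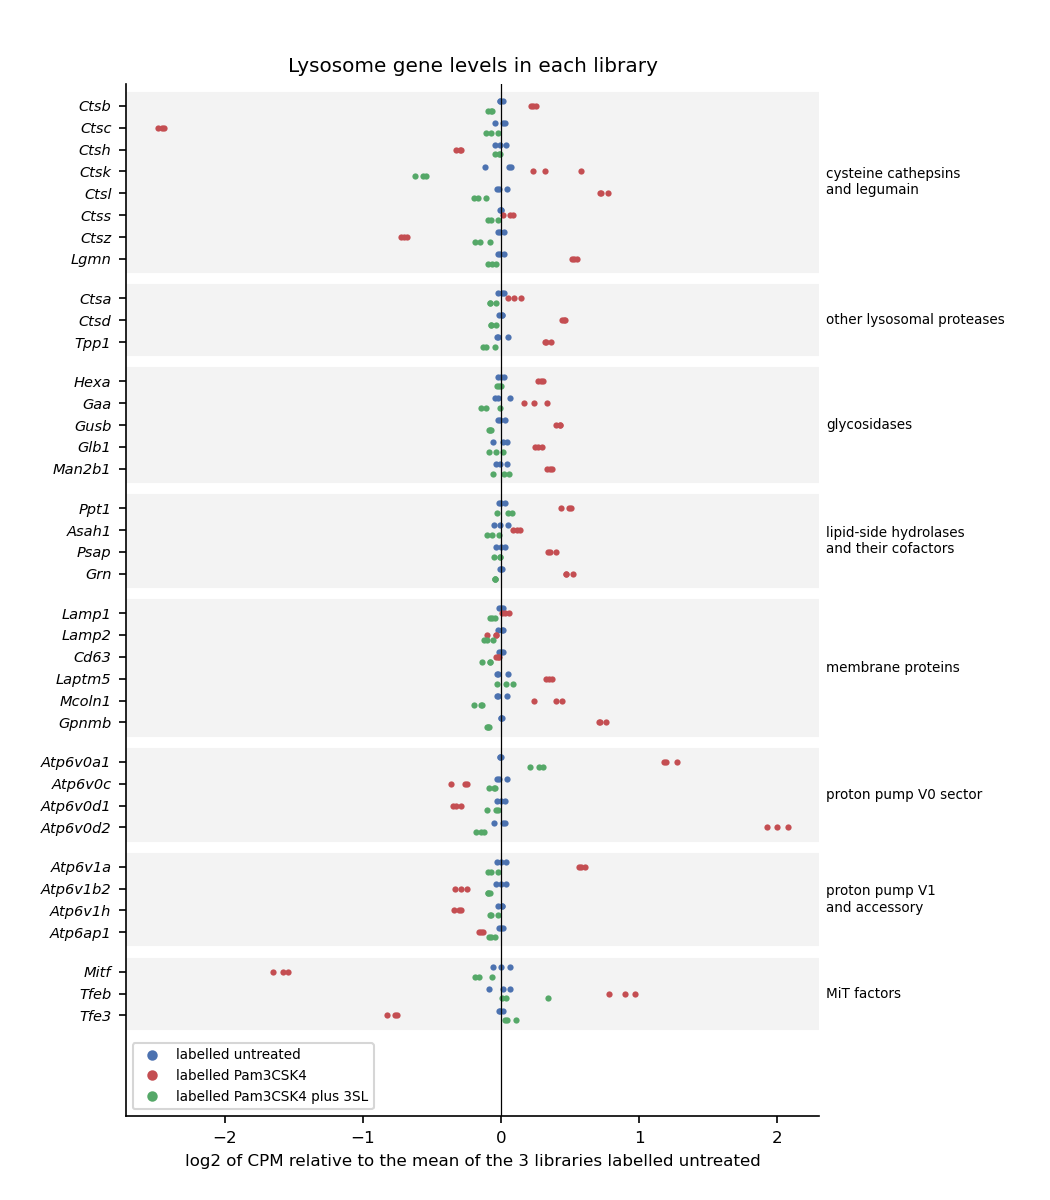
Each point is 1 library, and the horizontal axis is the log2 of its CPM over the mean of the 3 libraries labelled untreated, with genes grouped by role. Points of the libraries labelled Pam3CSK4 lie apart from the other groups for most genes, farthest to the right for Atp6v0d2 and farthest to the left for Ctsc, while points labelled Pam3CSK4 plus 3SL stay close to those labelled untreated.

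These directions depend in part on the library scaling. The 37 genes together took between 5.37% and 5.43% of all counts in the libraries labelled untreated, between 8.13% and 8.31% in those labelled Pam3CSK4, and between 5.23% and 5.34% in those labelled Pam3CSK4 plus 3SL. Scaling by library size alone moved the median log2 change of all genes from 0.03 to 0.34 and that of the 37 genes from 0.27 to 0.59. Under that scaling 28 of the 37 genes were higher and 4 lower, beside 80.8% of all genes that passed, 60.0% as higher and 20.8% as lower. The 23 genes called higher and 4 of those called lower (Ctsc, Ctsz, Mitf and Tfe3) had the same call under both scalings. Atp6ap1 was called in opposite directions, at -0.14 with TMM and 0.17 with library size. The other 5 genes called lower with TMM (Ctsh, Atp6v0c, Atp6v0d1, Atp6v1b2 and Atp6v1h) lay between -0.01 and 0.03 with library size and did not pass.

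**Figure D2:**
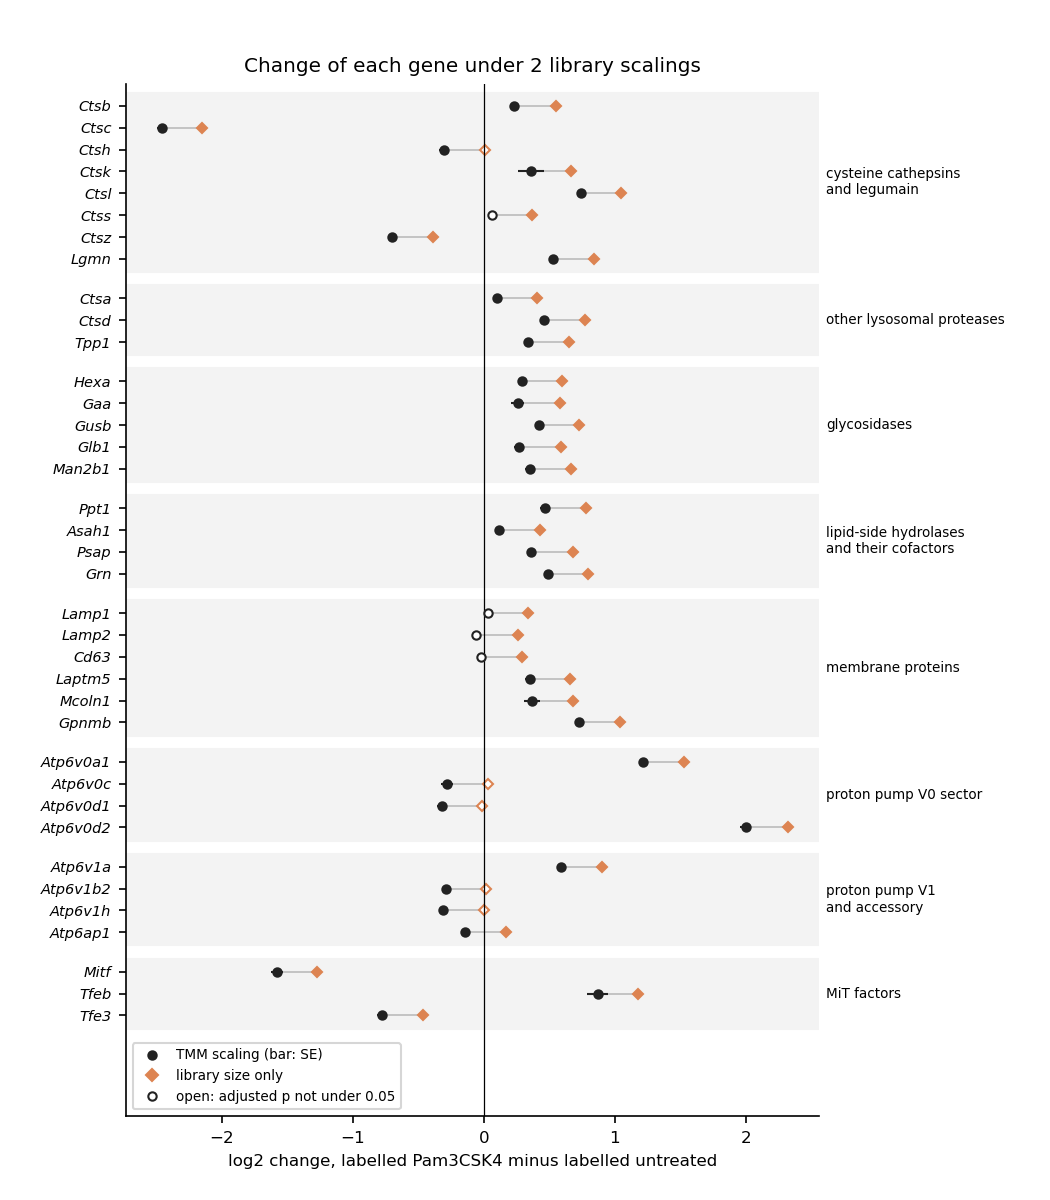
Log2 change from the libraries labelled untreated to those labelled Pam3CSK4 for each gene, as dark circles with TMM scaling (bar, SE) and as orange diamonds with library size only; open symbols did not pass the test. Library size shifts every gene to the right by a like amount, which takes Ctsh and 4 proton pump genes to about 0 and leaves Ctsc, Ctsz, Mitf and Tfe3 on the left.

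Cysteine cathepsin genes moved in both directions. Of these 7 genes and Lgmn, the gene of the asparagine-specific protease legumain, 4 were higher (Ctsb, Ctsk, Ctsl and Lgmn) and 3 lower (Ctsc, Ctsh and Ctsz). Ctsc encodes cathepsin C, a dipeptidyl peptidase that activates serine proteases of granules, and lies at chr7:88278085-88310888 of GRCm38. It stood at 2014, 2112 and 2094 CPM in A2, B2 and C2, at 378, 370 and 383 CPM in D1, D2 and D3, and at 1919, 1972 and 2041 CPM in A2plus, B2plus and C2plus. Every library labelled Pam3CSK4 was far below the other 6, with a log2 change of -2.46 ± 0.031 (SE) from the untreated label and an edgeR adjusted p of 4.82e-30. Ctsz, the gene of the carboxypeptidase cathepsin Z, stood at 1332, 1372 and 1344 CPM with the untreated label, at 819, 841 and 830 CPM with the Pam3CSK4 label, and at 1216, 1278 and 1186 CPM with the Pam3CSK4 plus 3SL label. It was 1.63-fold lower in D1 to D3, again without overlap. Ctsl, the gene of the endopeptidase cathepsin L, went the other way: 1490, 1549 and 1477 CPM with the untreated label, 2580, 2492 and 2480 CPM with the Pam3CSK4 label, and 1344, 1395 and 1317 CPM with the Pam3CSK4 plus 3SL label. It rose 1.67-fold, the largest rise among the cathepsins. Part of Ctsl (1742 bases of exon) overlaps the antisense gene Gm47123, and without a stated strand setting reads there cannot be told apart.

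The remaining cysteine proteases moved less. Ctsh, the gene of the aminopeptidase cathepsin H, stood at 172, 182 and 176 CPM with the untreated label, at 144, 141 and 145 CPM with the Pam3CSK4 label, and at 175, 172 and 176 CPM with the Pam3CSK4 plus 3SL label. Its 1.23-fold decrease was at 0.01 on the log2 scale with library size only. Ctsb was 1.18-fold and Lgmn 1.44-fold higher. Ctsb shares 774 bases of exon with Fdft1 on the other strand. Ctss was at 0.06 ± 0.026 on the log2 scale with an edgeR adjusted p of 0.0523, and it passed with library size only (0.37), with no low-count filter (adjusted p 0.014), without D3 (0.0193), without A2plus (0.0485) and without B2plus (0.0454). Ctsk, whose product cathepsin K degrades collagen in osteoclasts, was low throughout: 10.5, 12 and 11.9 CPM with the untreated label, 14.2, 13.4 and 17 CPM with the Pam3CSK4 label, and 7.73, 7.83 and 7.42 CPM with the Pam3CSK4 plus 3SL label. Its groups did not overlap, and it was 1.28-fold higher with the Pam3CSK4 label. Counted within each library and per base of transcript, which needs no scaling between libraries, Ctsc made up 7.58% ± 0.142 of all cathepsin RNA with the untreated label, 1.29% ± 0.0354 with the Pam3CSK4 label and 7.61% ± 0.271 with the Pam3CSK4 plus 3SL label. Ctsd rose from 25% ± 0.144 to 32% ± 0.352 of that RNA and stood at 25.2% ± 0.0474 with 3SL. Ctss held 25.3% ± 0.21, 24.6% ± 0.448 and 25.5% ± 0.287 in the same order.

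The other hydrolase and cofactor genes were uniformly higher. These were 3 other proteases, 5 glycosidases and 4 genes grouped as lipid hydrolases and cofactors (Ppt1, Asah1, Psap and Grn). All rose, also with library size only. Their log2 changes with TMM lay between 0.10 (Ctsa) and 0.49 (Grn). Ctsd stood at 5771, 5866 and 5863 CPM with the untreated label, at 7938, 8045 and 8007 CPM with the Pam3CSK4 label, and at 5546, 5693 and 5542 CPM with the Pam3CSK4 plus 3SL label. It was 1.37-fold higher, and the other groups lay below every Pam3CSK4 value. Ctsd shares 808 bases of exon with the gene Gm49369 on the same strand. Tpp1, the gene of tripeptidyl peptidase 1, stood at 294, 292 and 308 CPM, then 371, 383 and 373 CPM, then 277, 273 and 289 CPM in the same order of labels, a 1.26-fold rise. Ctsa, whose product cathepsin A also stabilises lysosomal β-galactosidase and neuraminidase, changed least, by 1.07-fold, and shares 819 bases of exon with Neurl2 and Pltp on the other strand.

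Among the glycosidases, which remove sugars from glycoproteins, glycolipids and glycogen, the folds lay between 1.2 (Gaa, the glycogen-degrading α-glucosidase) and 1.34 (Gusb, β-glucuronidase). Gusb stood at 602, 616 and 596 CPM with the untreated label, at 813, 814 and 798 CPM with the Pam3CSK4 label, and at 574, 575 and 571 CPM with the Pam3CSK4 plus 3SL label. Man2b1, lysosomal α-mannosidase, stood at 492, 502 and 521 CPM, then 647, 651 and 635 CPM, then 526, 512 and 485 CPM. For both genes every library labelled Pam3CSK4 lay above the other 6. Hexa (a subunit of β-hexosaminidase) and Glb1 (β-galactosidase) were 1.22-fold and 1.21-fold higher. Grn, the gene of progranulin, a secreted and lysosomal regulator of hydrolases, rose 1.4-fold, from 1712, 1733 and 1718 CPM to 2388, 2468 and 2388 CPM, and stood at 1673, 1669 and 1668 CPM with the Pam3CSK4 plus 3SL label. Ppt1, which removes palmitate from proteins, rose 1.39-fold, from 109, 111 and 108 CPM to 155, 153 and 147 CPM, and stood at 113, 115 and 107 CPM with the third label. Psap was 1.29-fold and Asah1 (acid ceramidase) 1.08-fold higher.

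Of the 6 membrane protein genes, 3 rose and 3 did not pass with TMM scaling. Gpnmb stood at 7619, 7619 and 7663 CPM with the untreated label, at 12578, 12953 and 12488 CPM with the Pam3CSK4 label, and at 7112, 7201 and 7170 CPM with the Pam3CSK4 plus 3SL label. It rose 1.66-fold without overlap (log2 0.73 ± 0.022, edgeR adjusted p 2.76e-21) and lies at chr6:49036546-49070929. Mcoln1, the gene of the calcium channel TRPML1, stood at 35.7, 36 and 37.6 CPM, then 43, 48.1 and 49.5 CPM, then 33.2, 31.9 and 33 CPM, a 1.29-fold rise in which D1 was the lowest of its group. Laptm5, a lysosomal transmembrane protein gene of blood cells, was 1.27-fold higher. The structural glycoprotein genes of the lysosomal membrane showed little difference: Lamp1 was at 0.03 ± 0.025, Lamp2 at -0.06 ± 0.03 and the tetraspanin gene Cd63 at -0.02 ± 0.031 on the log2 scale. With library size only these 3 genes passed as higher, at 0.34, 0.26 and 0.29, below or close to the median of all genes on that scale (0.34).

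The proton pump genes differed between isoforms. Atp6v0d2, at chr4:19876841-19922605, encodes the d2 isoform of the V0 subunit d, known from osteoclasts and macrophages, whereas Atp6v0d1 encodes the widely expressed d1 isoform. Atp6v0d2 stood at 60, 63 and 63.5 CPM with the untreated label, at 249, 262 and 236 CPM with the Pam3CSK4 label, and at 54.8, 57 and 56.4 CPM with the Pam3CSK4 plus 3SL label. Every library labelled Pam3CSK4 lay far above the other 6, and the 4.01-fold rise (SE 0.044 on the log2 scale) had an edgeR adjusted p of 1.10e-24. Atp6v0d1 stood at 238, 248 and 243 CPM, then 191, 199 and 194 CPM, then 237, 239 and 227 CPM. The d1 gene was thus lower where the d2 gene was higher, by -0.32 ± 0.036 with TMM and -0.01 with library size only. The ratio of Atp6v0d2 to Atp6v0d1 counts needs no scaling between libraries. It was 0.252, 0.254 and 0.262 in A2, B2 and C2, 1.3, 1.31 and 1.22 in D1, D2 and D3, and 0.231, 0.239 and 0.249 in A2plus, B2plus and C2plus. The ratio was 4.99-fold higher with the Pam3CSK4 label than with the untreated label, and the groups did not overlap. A two-sided exact permutation test gave p = 0.1 (n = 3 per group), the smallest value that 3 against 3 libraries allow, and 0.1 after adjustment over the 3 comparisons of this ratio. Per base of transcript, d2 made up 14.1% ± 0.228 of subunit d RNA with the untreated label, 45% ± 1.05 with the Pam3CSK4 label and 13.3% ± 0.425 with the Pam3CSK4 plus 3SL label.

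Subunit a, through which protons pass the membrane, also differed between isoforms. Atp6v0a1 at chr11:101009452-101063719 stood at 171, 170 and 170 CPM with the untreated label, at 391, 413 and 387 CPM with the Pam3CSK4 label, and at 207, 211 and 198 CPM with the Pam3CSK4 plus 3SL label. Its 3 groups did not overlap, in the order untreated, Pam3CSK4 plus 3SL, Pam3CSK4. Within subunit a RNA, per base of transcript, the share of Atp6v0a1 was 17.8% ± 0.27, 33.7% ± 0.641 and 22.1% ± 0.945 for the labels untreated, Pam3CSK4 and Pam3CSK4 plus 3SL. The largest share belonged to Tcirg1, the gene of the a3 isoform, with 76.7% ± 0.296, 62.5% ± 0.533 and 72.4% ± 1.28. The proteolipid gene Atp6v0c, which forms the rotor ring, was 1.22-fold lower: 97.9, 98.8 and 103 CPM, then 77.9, 83.6 and 84.2 CPM, then 96.7, 97.1 and 94.2 CPM. Pseudogenes of Atp6v0c are annotated, and how reads were divided among such copies is not given in the sources used here.

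In the V1 sector, Atp6v1a, the catalytic subunit A, rose 1.5-fold from 571, 582 and 597 CPM with the untreated label to 873, 888 and 863 CPM with the Pam3CSK4 label, and stood at 556, 547 and 575 CPM with the Pam3CSK4 plus 3SL label. Atp6v1b2, whose product forms the same ring with subunit A, did not follow. It stood at 632, 667 and 648 CPM, then 531, 547 and 515 CPM, then 608, 615 and 607 CPM. Atp6v1h, a regulatory subunit, stood at 248, 248 and 244 CPM, then 200, 195 and 202 CPM, then 234, 244 and 235 CPM. Both were lower with TMM, by 1.22-fold and 1.24-fold, and at 0.02 and 0.00 on the log2 scale with library size only. Atp6ap1, an accessory subunit, was 1.11-fold lower with TMM. Over all 8 pump genes, 3 were higher and 5 lower with TMM, and 4 were higher with library size only while the other 4 did not pass.

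The MiT genes differed from each other in direction. Mitf at chr6:97807052-98021349 stood at 200, 192 and 209 CPM with the untreated label, at 67, 68.7 and 63.8 CPM with the Pam3CSK4 label, and at 176, 179 and 191 CPM with the Pam3CSK4 plus 3SL label. It was lower by -1.58 ± 0.045 on the log2 scale with an edgeR adjusted p of 5.74e-22. Tfe3 stood at 212, 213 and 216 CPM, then 126, 127 and 121 CPM, then 231, 221 and 218 CPM, a 1.71-fold decrease. Tfeb, the least abundant of the 3, stood at 17.2, 17.8 and 16 CPM, then 31.7, 33.3 and 29.2 CPM, then 21.5, 17.4 and 17.1 CPM, a 1.83-fold rise. None of the 3 overlapped between the labels untreated and Pam3CSK4. Of the RNA of the 4 family genes, per base of transcript, Tfeb held 2.74% ± 0.128 with the untreated label, 15.9% ± 0.447 with the Pam3CSK4 label and 3.1% ± 0.483 with the Pam3CSK4 plus 3SL label. Tfe3 held 24.2% ± 0.381, 44.2% ± 0.85 and 26% ± 1.42, so its share rose while its level fell. Mitf held nearly the same share, 15.2% ± 0.79, 15.8% ± 0.212 and 14.2% ± 0.368. Tfec, the family gene of macrophages that is not among the 37, fell from 57.8% ± 1.06 to 24.1% ± 0.931 and stood at 56.7% ± 1.77 with 3SL. With lengths taken as the union of all exons, the share of Mitf was 29.9%, 29.5% and 28.1%, so the level of that share depends on the length used, and its near constancy over the labels does not.

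**Figure D3:**
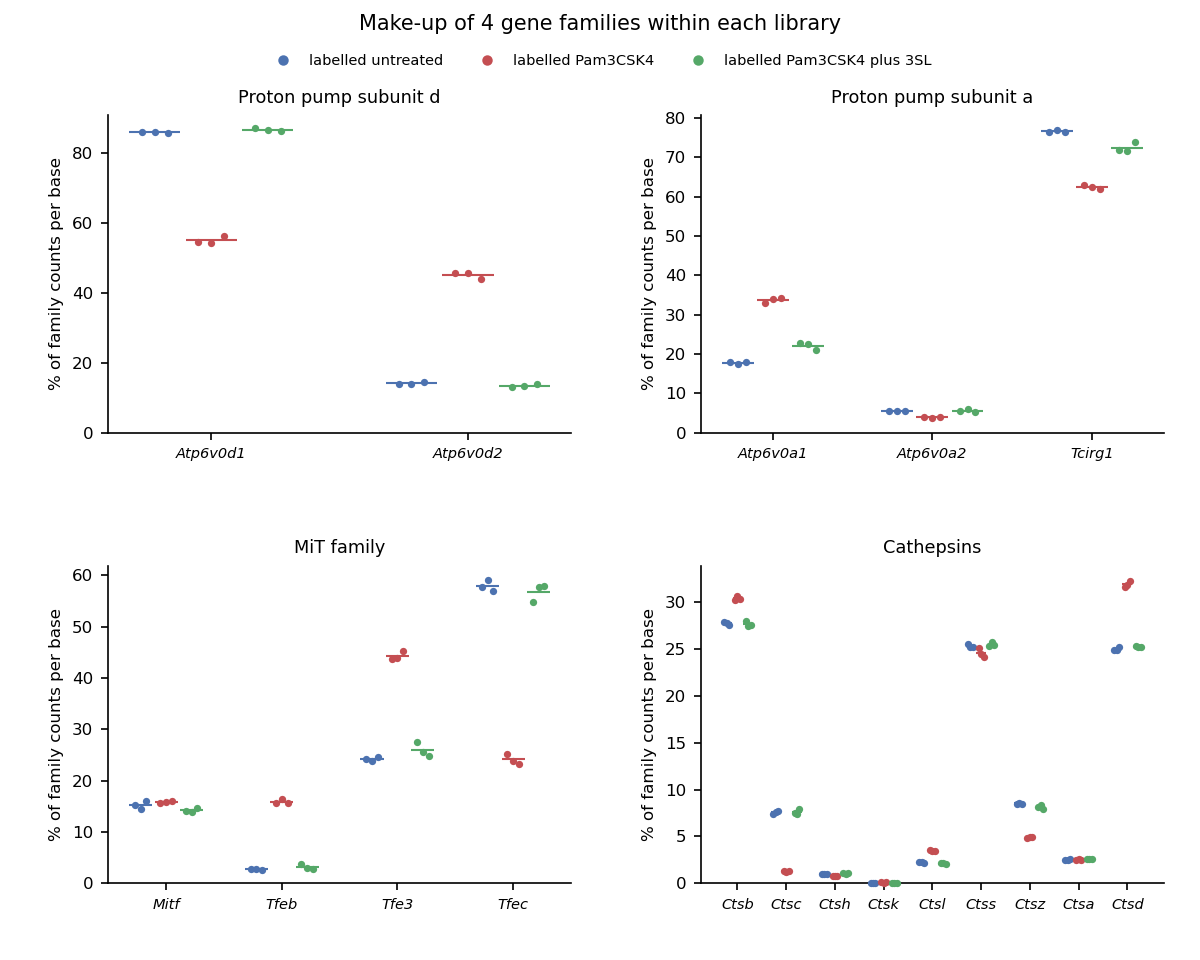
Share of each gene in its family's counts per base of the principal transcript within each library (vertical axis, percent), for proton pump subunits d and a, the MiT family and the 9 cathepsin genes; points are libraries and lines are means of 3. Atp6v0d2, Atp6v0a1, Tfeb, Tfe3 and Ctsd hold larger shares with the Pam3CSK4 label, and Ctsc, Ctsz, Tcirg1 and Tfec hold smaller ones.

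Ctsk and Atp6v0d2 are also known from osteoclasts, and 8 other osteoclast markers, of which 5 were tested, were read beside them. Their summed level was between 328 and 340 CPM with the untreated label, between 79 and 83 CPM with the Pam3CSK4 label and between 363 and 380 CPM with the Pam3CSK4 plus 3SL label. Acp5 and Mmp9 were lower with the Pam3CSK4 label (7.45-fold and 16-fold) and Nfatc1 and Itgb3 higher (2.83-fold and 2.08-fold). Calcr and Oscar were at or near 0, with no library above 0.127 CPM. The neutrophil and progenitor markers summed to between 632 and 659, between 409 and 515, and between 513 and 567 CPM for the labels untreated, Pam3CSK4 and Pam3CSK4 plus 3SL. That sum hides opposite directions. Of 9 tested, 5 were higher with the Pam3CSK4 label than with the untreated label, among them Mpo (2.12-fold). The other 4 were lower, among them S100a9 (1.77-fold). With library size only 5 were higher and 3 lower, beside 60.0% and 20.8% of all genes. The dendritic cell markers summed to between 39.4 and 40.3 CPM with the Pam3CSK4 label and between 88.2 and 92.4 CPM in the other groups. Most of that sum was Itgax, at a mean of 36.3 CPM with the Pam3CSK4 label and 82.5 CPM with the untreated label. Of 4 tested, 3 were lower with the Pam3CSK4 label and 1, Batf3, was higher (1.81-fold). The part of such cells in the lysosome genes was not tested.

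The genes with a promoter motif were compared in direction with all genes that hold it. Of the 10 genes with CACGTG in a window, 8 were higher (Ctsl, Lgmn, Ctsa, Ctsd, Gaa, Glb1, Mcoln1 and Atp6v1a), Atp6v0d1 was lower and Lamp1 did not pass. Among the 31 lysosome genes with any window, 64.5% were higher and 22.6% lower. Over all 1091 tested genes with CACGTG in a window, 42.5% were higher and 34.1% lower. Of the 5 with TCACGTGA shown above, 4 were higher. Over all 210 tested genes with TCACGTGA in a window, 83 were higher (39.5%) and 71 lower (33.8%) with a median log2 change of 0.01, close to the 39.3% and 36.0% of the 9137 tested genes with any window. With library size only, 71.0% of the 210 genes and 60.5% of the 9137 genes were higher, with medians of 0.32 and 0.34. Atp6v0a1, Ctsc and Mitf, the genes with a window whose log2 change was at least 1 in size, held none of the 3 motifs, which says only that these letters are not in those windows.

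Other genes of the pathway were read from 6 further lists with 109 genes, of which 99 were tested: 54 were higher, 25 lower and 20 did not pass, with a median log2 change of 0.20. The 79.8% called is near the 75.0% of all genes, of which 39.0% were higher and 35.9% lower, against 54.5% and 25.3% of these genes. Library size only gave other counts: 78 were higher (78.8%) and 14 lower (14.1%), beside 60.0% and 20.8% of all genes. Of 33 other hydrolase genes 21 were higher and 6 lower, and 28 and 4 with library size only. Sgsh, the gene of sulfamidase of heparan sulfate breakdown, rose 9.37-fold, from 7.85, 6.56 and 8.27 CPM to 67.8, 70.3 and 64.9 CPM, and stood at 8.43, 7.74 and 7.62 CPM with the Pam3CSK4 plus 3SL label. Acp5, tartrate-resistant acid phosphatase, fell 7.45-fold. Of 22 other membrane genes 15 were higher, led by Tpcn1, the gene of an endolysosomal cation channel (2.79-fold), and Slc17a5, the sialic acid exporter sialin (2.71-fold), and 5 were lower. Scaled by library size only, 18 membrane genes were higher and 4 lower. Of 12 other pump genes tested, 2 were higher and 6 lower, Atp6v1e1 by 2.09-fold, while Atp6v1c1 rose 1.56-fold. Scaled by library size, 7 of these pump genes (58.3%) were higher and 2 (16.7%) lower, near the 60.0% and 20.8% of all genes.

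The list for control of the MiT factors through nutrient signalling also holds the family gene Tfec. Of its 21 tested genes 10 were higher and 5, Tfec among them, lower. This share of 71.4% called is below the 75.0% of all genes, so the count is no result about the list. Scaled by library size only, 17 were higher (81%) and 1 lower (4.76%), beside 60.0% and 20.8% of all genes. Rragd, the gene of a Rag GTPase that brings the MiT factors to the lysosome, rose 8.64-fold, from 3.42, 4.45 and 3.29 CPM to 33.2, 36.2 and 33.7 CPM, and stood at 4.92, 4.21 and 3.86 CPM with the Pam3CSK4 plus 3SL label. Every library labelled Pam3CSK4 was above the other 6. Tfec fell 7.53-fold, from 276, 288 and 273 CPM to 39.4, 37.9 and 33.9 CPM, and stood at 250, 272 and 277 CPM with the third label. A further list holds 6 genes that sort new hydrolases to the lysosome, by mannose 6-phosphate or, for Sort1, by another receptor. Of these 4 were higher, Sort1 among them. M6pr, the cation-dependent mannose 6-phosphate receptor gene, was lower by -0.97 ± 0.031. Of 5 tested cathepsin inhibitor genes 2 were higher and 2 lower, with Ctla2b at 2.03 ± 0.066 and Cst7 at -1.06 ± 0.20. The 83.3% of sorting genes and 80% of inhibitor genes called are near the 75.0% of all genes. With library size only 5 sorting genes were higher and 1 lower, and 3 inhibitor genes were higher and 2 lower. Of all genes 60.0% were higher and 20.8% lower with that scaling. Ctla2a and Ctla2b are near-identical copies, so their counts are uncertain.

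**Figure D4:**
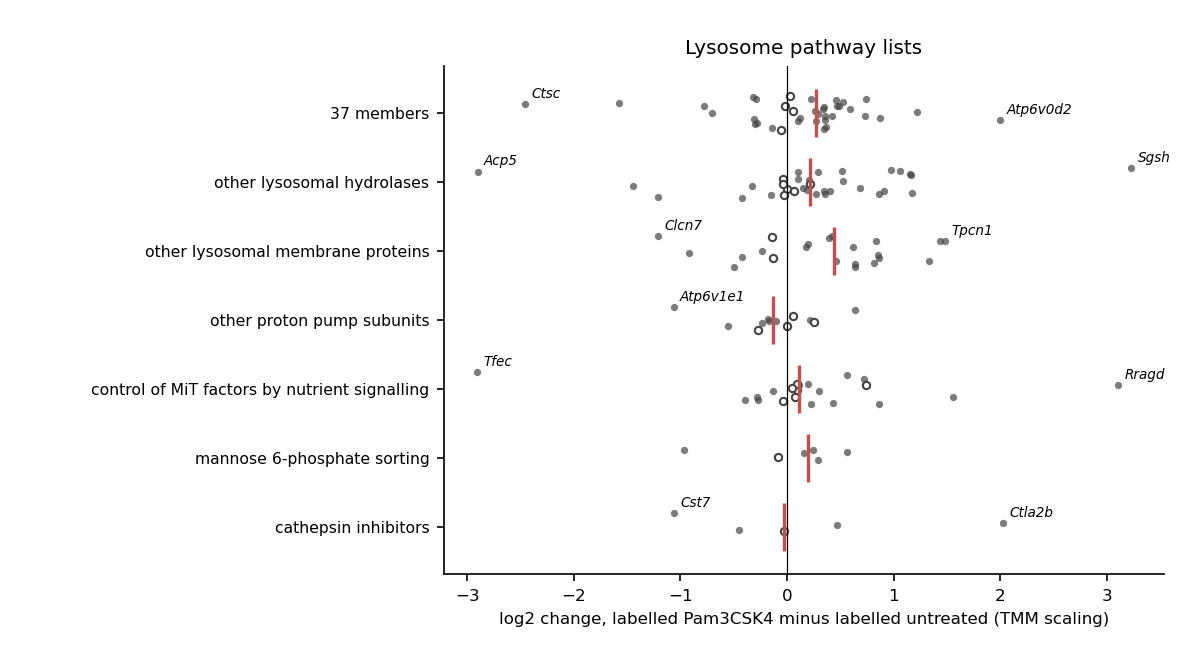
Log2 change from the untreated label to the Pam3CSK4 label (horizontal axis, TMM scaling) for the 37 genes and for each list of other pathway genes; points are genes, open points did not pass the test, and red lines are medians. The hydrolase and membrane lists have more points to the right of 0, and the pump list has more to the left, where it moves to a median of 0.18 with library size only.

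The comparison of the label Pam3CSK4 plus 3SL with the label Pam3CSK4 addresses, by its labels, the addition of 3SL to the stimulus. The levels of Il1b and Tnf in D1 to D3 and the naming of the lipopeptide, both given above, limit that reading. It shares libraries D1, D2 and D3 with the comparison above, so its values are given beside it and are not independent of it. By edgeR's test 10 of the 37 genes were higher and 26 lower with 3SL, and Lamp2 did not pass. Of all tested genes 71.5% passed, 34.7% as higher and 36.8% as lower. The median log2 change was -0.31 over the 37 genes and -0.02 over all genes. With TMM scaling, 36 of the 37 genes (97.3%) did not overlap, against 73.1% of all genes. With library size only 4 were higher and 29 lower, beside 77.0% of all genes, 21.2% as higher and 55.7% as lower, and the medians were -0.58 and -0.29. When the change had to exceed 1.5-fold, 3 genes were higher (Ctsc, Mitf and Tfe3) and 7 lower, beside 29.8% of all genes, 13.8% as higher and 16.0% as lower.

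Among the proteases Ctsc was 5.25-fold higher with 3SL and Ctsz 1.48-fold, whereas Ctsl was 1.86-fold and Ctsk 1.93-fold lower. Ctsh was higher, at 0.28 ± 0.039 on the log2 scale, and at 0.01 with library size only. Ctsb (-0.31), Ctss (-0.12) and Lgmn (-0.59) were lower. Ctsa, Ctsd, Tpp1, the 5 glycosidases and the 4 genes grouped as lipid hydrolases and cofactors were lower in all 12 cases. Their log2 changes lay between -0.16 (Ctsa) and -0.53 (Grn). Of the membrane genes, Gpnmb was 1.77-fold and Mcoln1 1.44-fold lower. Cd63 at -0.07 ± 0.031 passed at an edgeR adjusted p of 0.039, which rose to 0.0525 without A2, 0.0756 without D1, 0.0968 without D3 and 0.172 without C2plus, and DESeq2 gave 0.145 and a fit of these 2 groups only 0.062. In the proton pump Atp6v0d2 was 4.44-fold and Atp6v0a1 1.93-fold lower, and Atp6v1a 1.56-fold lower. The other 5 pump genes were higher by 0.08 to 0.26 with TMM and between -0.20 and -0.01 with library size only. Atp6ap1, at 0.08 ± 0.031, did not pass without D1 (adjusted p 0.0519), without D3 (0.0914) or without B2plus (0.0792), nor with no low-count filter (0.219). The Atp6v0d2 to Atp6v0d1 ratio was 5.34-fold lower, with an exact permutation p of 0.1 (n = 3 per group). Mitf was 2.73-fold and Tfe3 1.79-fold higher, and Tfeb was 1.71-fold lower.

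The comparison of the label Pam3CSK4 plus 3SL with the label untreated found small differences. Of the 37 genes 1 (Atp6v0a1) was higher and 6 were lower: Ctsk, Ctsl, Ctsz, Gpnmb, Ctsb and Mitf. Of all tested genes 8.94% passed by edgeR's test, 3.83% as higher and 5.11% as lower. The median log2 change was -0.06 over the 37 genes and -0.00 over all genes. The groups did not overlap for 23 of the 37 genes (62.2%), against 24.0% of all genes. Overlap was read with TMM only, and differences this small depend on the scaling. With library size only the medians were -0.02 over the 37 genes and 0.04 over all genes. With library size only 1 was higher and 3 were lower, beside 10.4% of all genes, 6.87% as higher and 3.54% as lower. Of all genes 1025 passed with TMM, and this count was 626 without B2 and 683 without A2plus.

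Atp6v0a1 was 1.2-fold higher, with 207, 211 and 198 CPM in A2plus, B2plus and C2plus above 170 to 171 CPM in A2, B2 and C2 (log2 0.27 ± 0.038, edgeR adjusted p 2.09e-05). Leaving out any library kept it between 0.25 and 0.30. Ctsk was 1.5-fold lower, at -0.59 ± 0.13 with an edgeR adjusted p of 0.00225, on 7.42 to 7.83 CPM against 10.5 to 12 CPM. Ctsl was lower by -0.16 ± 0.029 and Ctsz by -0.14 ± 0.03, and both passed with library size only as well, as did Ctsk. Gpnmb at -0.09 ± 0.022, Ctsb at -0.08 ± 0.021 and Mitf at -0.13 ± 0.043 did not pass with library size only, at adjusted p of 0.103, 0.249 and 0.182. Ctsb did not pass without B2 (0.0944), without A2plus (0.0664) or without C2plus (0.086). Mitf, at an edgeR adjusted p of 0.0497, passed only without B2 (0.0312) or without C2plus (0.0173), and otherwise lay between 0.0518 and 0.208 when a library was left out. DESeq2 gave 0.0605 for it, and a fit of these 2 groups only gave 0.0631.

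Atp6v0d2 was at -0.15 ± 0.053 (edgeR adjusted p 0.087). Its ratio to Atp6v0d1 was 1.07-fold lower, and the groups did not overlap in that ratio. The exact permutation p was 0.1 (n = 3 per group), the smallest value that 3 against 3 libraries allow. Ctsc stood at -0.07 ± 0.029 and Tfeb at 0.10 ± 0.095, and neither passed. A2plus was the library with the highest Tfeb level among the 6, at 21.5 CPM against 16 to 17.8 CPM in the other 5. Of the 99 other pathway genes 4 were higher (4.04%) and 10 lower (10.1%), beside 3.83% and 5.11% of all genes. With library size only 5 were higher and 5 lower, beside 6.87% and 3.54% of all genes, so the lean towards lower depends on the scaling. Among those called with TMM, Acp5 changed most, at -0.46 ± 0.048, followed by Clcn7, the lysosomal chloride exchanger gene, at -0.25 ± 0.038.

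**Figure D5:**
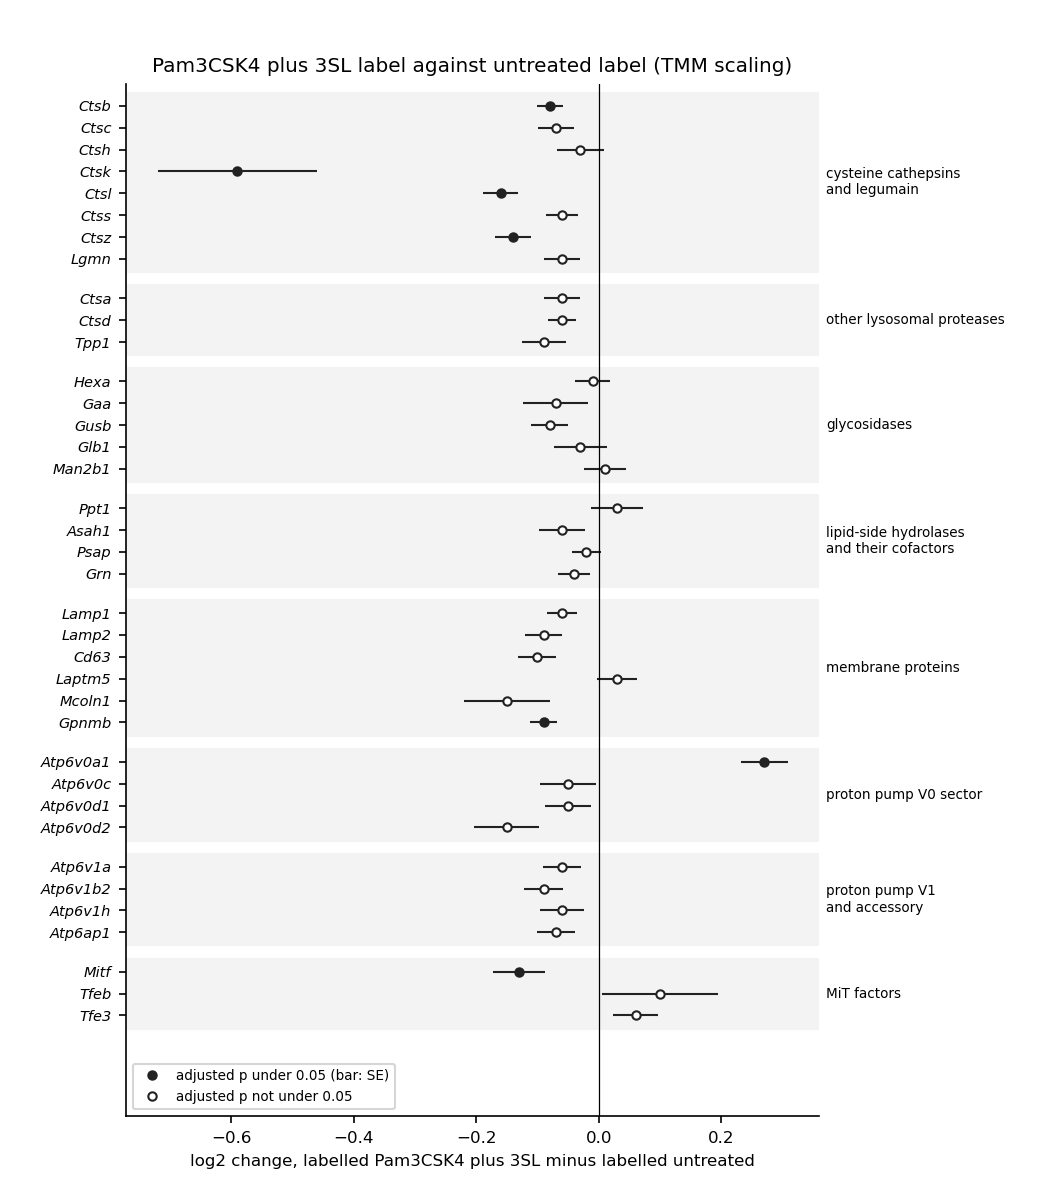
Log2 change from the untreated label to the Pam3CSK4 plus 3SL label for each gene (horizontal axis, TMM scaling; bar, SE); filled points passed the test. Most points lie slightly left of 0, with Ctsk at -0.59 and Atp6v0a1 at 0.27 at the edges.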

How the data were processed

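RNA-seq libraries of 9 macrophage samples were analysed. The deposited values are raw counts per gene, made by the authors with HISAT2 2.1.0, featureCounts and Subread, per the submitters' processing notes, which give no role or parameter for each. These notes name the human build hg38, while the identifiers are mouse Ensembl identifiers. The build, the annotation release and the strand setting behind the counts are therefore not settled. The table's 15 columns of other samples were not used. Gene names came from a table of Ensembl identifiers, coordinates and transcript lengths from GENCODE M21 on GRCm38, and promoters from RefSeq.

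Samples were grouped by their descriptions. Counts were filtered with filterByExpr, scaled with TMM and fitted with edgeR 4.0.16 in R 4.3.3 over all 9 libraries with 1 mean per group. Quasi-likelihood tests were adjusted by Benjamini-Hochberg over 11469 genes, with a threshold of 0.05. The biological coefficient of variation was 0.0365. Depths ran from 7472482 to 43980309 counts. At these depths 3 counts correspond to between 0.0746 and 0.422 CPM, and such floors cover counting error only. Replicates differed beyond sampling noise (chi-square per degree of freedom 1.85 to 3.01). Technical variation can also do this, so the values do not show that the libraries are separate animals or cultures. Each library was counted as 1 sample. In a simulation with 11091 genes, all libraries were drawn from the gene proportions of those labelled untreated. For the Pam3CSK4 label 50 genes were then changed at each fold, and the rest were left as they were. The test recovered 80% of genes changed 1.25-fold, 76% at 1.5-fold, 94% at 2-fold and 96% at 4-fold. Of its calls 6.49% were false. In the data 75.0% of genes passed between the labels Pam3CSK4 and untreated, so these rates do not describe that comparison. The alternatives were library size only, DESeq2 size factors, DESeq2 1.42.0, no low-count filter, a minimum fold of 1.5, fits of 2 groups only, each library left out, a replicate block and 2 transcript lengths. The length of the principal transcript was chosen after seeing the data.

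The members, the pathway lists and the tests were chosen with earlier results of these data known. Values in every library are given for the called genes with the largest change in each role class (at most 2 for each comparison) and for those moving against their class; in the other pathway lists at most the 2 genes of largest change are named.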

Additional observations from a re-analysis of the deposited data

How the results depend on the processing

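With library size only, 4 of the 37 genes were lower between the labels Pam3CSK4 and untreated (10 with TMM), 4 were higher between the labels Pam3CSK4 plus 3SL and Pam3CSK4 (10 with TMM), and 3 were lower between the labels Pam3CSK4 plus 3SL and untreated (6 with TMM). Signs changed in the first of these comparisons for Ctsh (0.01), Lamp2 (0.26), Cd63 (0.29), Atp6v0c (0.03), Atp6v1b2 (0.02), Atp6v1h (0.00) and Atp6ap1 (0.17). They changed in the next for Atp6v0c (-0.05), Atp6v0d1 (-0.01), Atp6v1b2 (-0.07), Atp6v1h (-0.02) and Atp6ap1 (-0.20). This scaling shifts all genes by a like amount, as its construction fixes.

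A minimum fold of 1.5 left 3699, 3413 and 6 genes in the 3 comparisons, in the order above. Among the 37 genes it left 5 higher and 4 lower, then 3 higher and 7 lower, then 0 higher and 0 lower. In the last case 0 and 0 also passed at an unadjusted p under 0.05 by this edgeR test, and DESeq2 without a minimum fold gave 1 higher and 7 lower. With DESeq2, DESeq2 size factors or no filter, every count of the 37 genes stayed within 1.5 times its value.

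Leaving out each library gave 8102 to 8710, 7827 to 8264 and 626 to 1038 genes. It gave 23 to 24 higher and 10 lower members, then 9 to 10 higher and 25 to 26 lower, then 1 higher and 4 to 6 lower. The lowest gene counts of the last comparison were 626 without B2 and 683 without A2plus, and the cause was not tested. The log2 Atp6v0d2 to Atp6v0d1 ratio changed by 2.30 to 2.35, by -2.45 to -2.39 and by -0.12 to -0.07.

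The letters A, B and C are shared by the labels untreated and Pam3CSK4 plus 3SL. Same-letter deviations correlated at -0.017, 0.042 and 0.008, and those of unlike letters between -0.033 and 0.023. Deviations from means of 3 libraries include counting error, so these low values do not settle whether the letters pair the libraries. With the letter as a replicate block 951 genes passed, with 1 of the 37 genes higher and 6 lower, and all 7 calls were kept. The letter D cannot be blocked. The smallest counts in any library were 55 for Ctsk, 151 for Tfeb and 236 for Mcoln1, and counting error weighs most on these genes.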
